A study of Mus musculus with 4 samples.

Results

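Cytochrome P450 genes of families 1 to 4 were described in Hepa1-6 cells, a mouse liver cancer line, with and without an shRNA against Setdb1. The members are all gene rows whose symbol is Cyp, a family number from 1 to 4, a subfamily letter and a gene number. They are 75 of the 54838 named genes in the files, all protein-coding in GENCODE M21, and 36 other rows of these families (pseudogenes and symbols with a suffix) fell outside the rule. The control group held 2 libraries of cells with the shRNA labelled shNC (genotype Setdb1 wild type), and the knockdown group 2 libraries of cells with the shRNA labelled shSet (genotype Setdb1 knockdown). The series text calls the cells subclones without saying how many were used, so differences between subclones and effects of the shRNA cannot be told apart. Neither separate cultures nor the shRNA sequence is given in the sources used here, so the p-values here reflect the spread among these 4 libraries alone, and that spread may be technical.

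P450 enzymes of families 1 to 4 are mainly haem proteins of the endoplasmic reticulum that insert an oxygen atom into their substrates with electrons from the reductase Por. Families 1 to 3 hold most of the enzymes that oxidise drugs and other foreign compounds, and family 4 mainly hydroxylates fatty acids and related lipids. In liver many of them are switched on by ligand-activated receptors: Ahr for Cyp1 genes, the receptors CAR (Nr1i3) and PXR (Nr1i2) for Cyp2b, Cyp2c and Cyp3a genes, and Ppara for Cyp4a genes. Hepatocytes hold large amounts of these RNAs, and liver cancer lines commonly hold little.

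The libraries held 19513567 to 19615440 expected counts. Setdb1, the targeted gene, stood at 51.2 and 59.4 CPM (the count scaled by the library total) in the controls and at 10.96 and 8.59 in the knockdown libraries, which is the labelled direction (log2 fold change -2.49, SE 0.182, edgeR adjusted p = 1.495e-04). Of 8 hepatocyte markers, albumin (Alb) and alpha-fetoprotein (Afp) were high, at 429 to 856 and 532 to 728 TPM (the same, scaled by transcript length too). Alb was itself called higher with the knockdown, with 429 and 432 TPM against 856 and 732 (log2 fold change 0.94, SE 0.143, edgeR adjusted p = 0.00563). In contrast, transthyretin (Ttr), apolipoprotein A1 (Apoa1) and fibrinogen alpha (Fga) had at most 7 counts in any library. Afp (532 and 588 against 714 and 728 TPM) was not called, nor was Serpina1a (9 and 6 counts against 14 and 10). Krt18 lay lower with the knockdown, at 1367 and 1646 against 1284 and 1137 TPM. Krt8 overlapped, at 618 and 548 against 549 and 530 TPM, and neither keratin was called. All 8 markers summed to 2947 and 3215 against 3405 and 3128 TPM, so the groups overlapped. The Kupffer cell marker Clec4f had 0 counts in all 4 libraries. Some markers of other liver cell types were higher in the knockdown libraries beside the P450 genes described here. The 4 macrophage markers summed to 8.39 and 9.03 TPM in the controls against 14.9 and 16.7 in the knockdown, mostly from Cd68 (7.96 and 8.02 against 12.25 and 15.13). The 4 endothelial markers summed to 0.18 and 0.21 against 0.45 and 0.89. Nearly all of this was Pecam1 (0.16 and 0.19 against 0.42 and 0.86), and Kdr, Stab2 and Cdh5 had at most 2 counts per library. The 5 stellate cell and fibroblast markers summed to 0.98 and 1.16 against 1.51 and 1.91. There Lrat had 0 counts and Pdgfrb at most 1. Reln had 0 and 6 counts against 1 and 3, and Des overlapped in TPM (0.64 and 0.99 against 0.60 and 1.20). Of the last list the collagen gene Col1a1 was called higher, with 16 and 15 counts against 60 and 79 (log2 fold change 2.17, edgeR adjusted p = 0.00652). The 5 cholangiocyte markers summed to 399 and 438 against 278 and 302 TPM, with Epcam called higher and Spp1 lower. The part of these markers, Alb included, in the P450 values was not tested. In bulk RNA a change in the number of cells that hold a transcript and a change in RNA per cell cannot be told apart.

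The sequences just before the start sites of 4 genes that rose, and of the most abundant member, Cyp2s1, are shown because the members differ in their CpG content there. Each is the 250 bases before the RefSeq start (GRCm38.p6), printed 5′ to 3′ on the gene's strand, with CG dinucleotides in capitals. The windows lie at chr4:115647722-115647971 (minus strand) for Cyp4b1, chr19:39741102-39741351 (minus) for Cyp2c68, chr19:39463076-39463325 (minus) for Cyp2c38, chr9:57697363-57697612 (plus) for Cyp1a1 and chr7:25816526-25816775 (minus) for Cyp2s1.
Cyp4b1: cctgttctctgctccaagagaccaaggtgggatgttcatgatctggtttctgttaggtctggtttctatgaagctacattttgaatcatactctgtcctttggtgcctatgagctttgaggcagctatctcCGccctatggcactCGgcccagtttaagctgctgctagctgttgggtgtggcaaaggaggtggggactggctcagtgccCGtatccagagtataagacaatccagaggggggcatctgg
Cyp2c68: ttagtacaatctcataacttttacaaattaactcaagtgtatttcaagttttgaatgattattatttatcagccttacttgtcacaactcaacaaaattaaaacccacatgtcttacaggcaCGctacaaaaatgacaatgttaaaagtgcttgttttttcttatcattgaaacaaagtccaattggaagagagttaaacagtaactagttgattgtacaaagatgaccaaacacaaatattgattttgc
Cyp2c38: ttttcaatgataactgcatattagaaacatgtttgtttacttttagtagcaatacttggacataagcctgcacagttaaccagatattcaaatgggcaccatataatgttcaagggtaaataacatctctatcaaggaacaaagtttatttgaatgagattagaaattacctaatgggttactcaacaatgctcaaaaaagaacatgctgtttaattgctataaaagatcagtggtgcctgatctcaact
Cyp1a1: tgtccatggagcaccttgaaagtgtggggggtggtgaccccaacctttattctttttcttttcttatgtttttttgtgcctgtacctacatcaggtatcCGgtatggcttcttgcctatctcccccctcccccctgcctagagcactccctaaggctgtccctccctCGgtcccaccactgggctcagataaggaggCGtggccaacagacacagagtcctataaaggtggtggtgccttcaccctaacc
Cyp2s1: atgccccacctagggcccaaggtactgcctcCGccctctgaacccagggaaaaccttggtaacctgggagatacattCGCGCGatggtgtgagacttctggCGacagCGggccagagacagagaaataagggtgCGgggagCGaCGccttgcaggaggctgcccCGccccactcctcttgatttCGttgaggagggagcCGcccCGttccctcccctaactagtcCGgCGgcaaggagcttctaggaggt
These windows held 3 CpGs for Cyp4b1, 1 for Cyp2c68, 0 for Cyp2c38, 3 for Cyp1a1 and 15 for Cyp2s1. RefSeq gave windows for 62 of the 75 members (69 windows, since some genes have several starts), with a median of 2 CpGs against 6 over all 32851 windows of the table. Among the 13 tested members with a window, those with the most CpGs were Cyp4v3 (17), Cyp2r1 (16), Cyp2s1 (15) and Cyp1b1 (12). Other tested members that were not called had as few as the genes that rose. These were Cyp2c55 (0), Cyp3a13 (1), Cyp4f16 (2), Cyp4f13 (3) and Cyp2j6 (3). The median was 2 CpGs over the 4 called members and 3 over the 9 tested members not called. The RefSeq starts of Cyp1a1, Cyp2s1 and, by a few bases, Cyp4b1 lie inside the bounds that GENCODE gives these genes. That of Cyp2c68 lies outside them. The letters TATAAA (either strand) were present in the windows of Cyp1a1 and Cyp2c38, and in that of Cyp2c55, which was not called. They were in 34.8% of the members' windows and in 12.4% of all windows. The core of the Ahr response element is GCGTG on either strand (each match holds a CG counted above). It was present in the windows of Cyp1a1 and Cyp2c68, and in those of Cyp1b1, Cyp4f16 and Cyp4v3, which were not called. It was in 38.5% of the tested members' windows, in 18.8% of the members' windows and in 28.2% of all.

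Most P450 genes had few or no counts in these cells. Of the 75 members, 31 had no count in any library and 44 had at least 1. Of all named genes, which unlike the members are not all protein-coding, 39.2% had a count. The number of members with a count was 26 and 20 in the control libraries. It was 36 and 32 with the knockdown, above both controls. The same held for all named genes, with 17557 and 17569 against 18265 and 18100 detected. Missing in all 4 libraries were Cyp4a10 and Cyp4a14, known targets of Ppara, the kidney-type Cyp2j5, and 7 of the 8 Cyp2j genes in all. Enzymes that are abundant in hepatocytes were at or near 0. Cyp3a11 had 1, 0, 1 and 0 counts and Cyp2e1 0, 0, 2 and 0 (here and below in the order control 1, control 2, knockdown 1, knockdown 2). Cyp1a2 had 1, 2, 1 and 1 counts. A gene with 0 counts in a library could still hold up to 3 counts of its total, for counting error only.

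**Figure D1:**
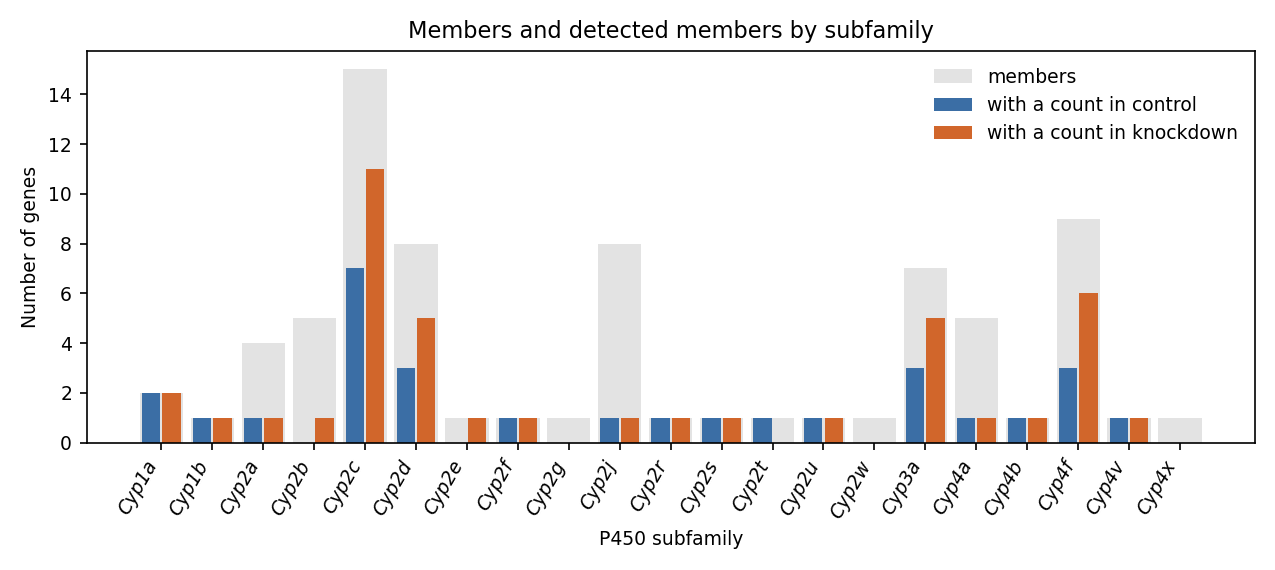
Number of genes (vertical axis) in each P450 subfamily: all members (grey), members with at least 1 count over the control libraries (blue) and over the knockdown libraries (orange). In Cyp2c 7 of 15 genes had a count in the controls and 11 in the knockdown libraries, and in Cyp4f 3 of 9 and 6.

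By subfamily, detection in the knockdown libraries exceeded that in the controls for Cyp2b (1 against 0 of 5 genes), Cyp2c (11 against 7 of 15), Cyp2d (5 against 3 of 8), Cyp2e (1 against 0 of 1), Cyp3a (5 against 3 of 7) and Cyp4f (6 against 3 of 9). It was lower only for Cyp2t, whose single member had 1 count in control 1. The other subfamilies had equal numbers in both groups. Several of the added members had 1 count in 1 library, such as Cyp2c37, Cyp2d34, Cyp3a25 and Cyp4f15. Among all named genes, too, more had counts in the knockdown libraries only (2286) than in the controls only (1627). The numbers are small and depend on the rule: with at least 10 counts over a group, 14 members were detected in the controls and 21 in the knockdown.

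Per transcript length, Cyp2s1 was the most abundant member in every library, at 99.9, 71.0, 69.3 and 74.6 TPM. Cyp2s1 is a P450 of epithelia that dioxin can induce. It held 51.3% and 43.8% of the summed TPM of the 75 members in the controls against 31.2% and 35.5% in the knockdown. In the controls Cyp4f16, Cyp1a1 and Cyp3a13 followed, and these 4 genes together carried most of the P450 RNA. In the knockdown libraries Cyp1a1 came next, at 18.5% and 16.3%, and Cyp4b1 went from 2.17% and 2.24% to 8.86% and 9.24%. Cyp2c68 went from 1.42% and 2.47% to 8.03% and 7.01%. The summed TPM of all members was 194.5 and 162.2 in the controls against 222.3 and 210.5 in the knockdown. Cyp4b1, Cyp1a1 and Cyp2c68 had the largest increases in TPM.

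**Figure D2:**
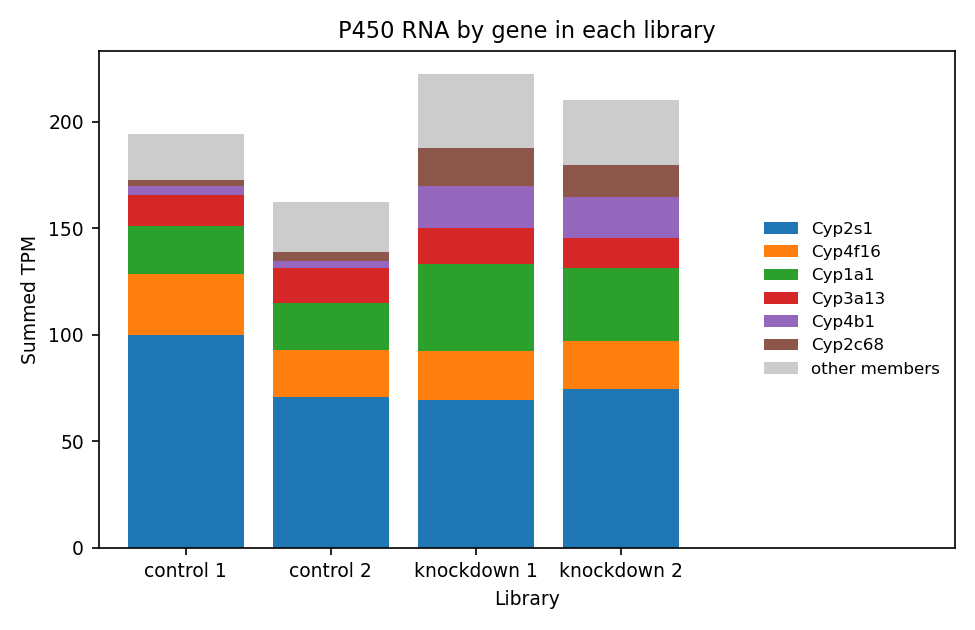
Summed TPM of the 75 members (vertical axis) in each library, split by gene. Cyp2s1 is the largest part of each bar, and the parts of Cyp1a1, Cyp4b1 and Cyp2c68 are larger in both knockdown libraries than in both controls.

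Among members with enough counts to test, Cyp4b1, Cyp2c68, Cyp1a1 and Cyp2c38 rose and 0 fell. Cyp4b1 and Cyp2c68 rose about 5-fold, Cyp1a1 by a factor of 1.77, and Cyp2c38 from 3 counts to 43. The count filter left 16 of the 75 members, and 12 of these were not called in edgeR's quasi-likelihood test at an adjusted p under 0.05. Over all 12821 genes tested 4.2% were called higher and 1.76% lower. Of the 16, 4 (Cyp1b1, Cyp2c23, Cyp2c38 and Cyp2c55) reached the filter's minimum of 0.511 CPM in the knockdown libraries and not in both controls. They could therefore pass only with the help of the knockdown libraries. Cyp1b1 reached the minimum in control 1 too, at 0.612 CPM. Of the 12 members that reached it in both controls, 3 were called higher and 0 lower, where 3.28% and 1.87% of all such genes were. The median log2 fold change of these 12 was 0.518, and that of all such genes -0.0204.

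**Figure D3:**
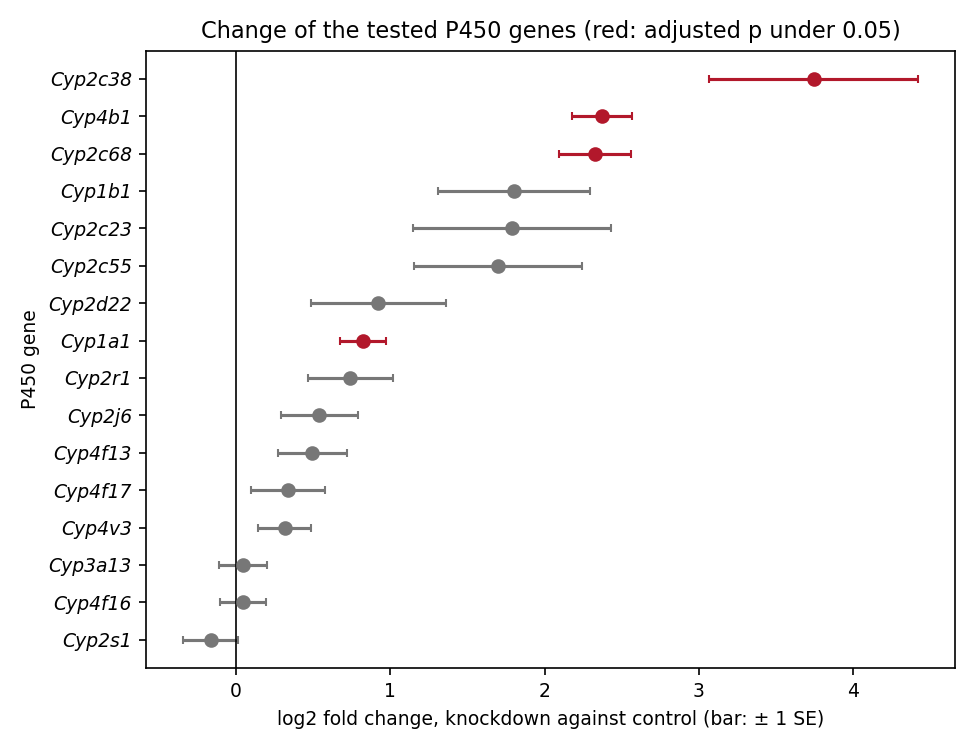
log2 fold change (knockdown against control, horizontal axis) of the 16 tested P450 genes with 1 SE on either side. Red marks the 4 genes with an adjusted p under 0.05. Cyp2s1 alone lies below 0, and the value of Cyp2c38 rests on 3 control counts and depends on the prior count of the fit.

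Cyp4b1, which hydroxylates fatty acids and activates certain protoxins, had the smallest p of the members. It lies on chromosome 4 (115624725 to 115647723, minus strand, GRCm38, ENSMUSG00000028713.17). Its level was 5.26 and 4.66 CPM in the controls against 25.5 and 25.5 CPM in the knockdown libraries, with both knockdown libraries far above both controls. The mean level was 4.96 ± 0.418 CPM in the controls and 25.5 ± 0.0656 CPM after knockdown (SD, n = 2 per group), a log2 fold change of 2.37 (SE 0.193, edgeR adjusted p = 2.17e-04). All its counts were whole. The P450 transcript closest to it in sequence, that of the pseudogene Cyp4b1-ps2, matched it over 333 bases at 96.4% identity.

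Cyp2c68 (chromosome 19, 39688834 to 39741054, minus strand, ENSMUSG00000074882.3) stood at 3.21 and 4.61 CPM in the controls against 21.3 and 17.6 CPM in the knockdown. The groups were well apart. Mean levels were 3.91 ± 0.991 and 19.4 ± 2.62 CPM (SD, n = 2). The log2 fold change was 2.33 with an SE of 0.234 and an edgeR adjusted p of 5.96e-04. Its whole transcript of 1724 bases is 98.0% identical to that of its neighbour Cyp2c40, and 2 of its 4 counts were fractional. Cyp2c40 was itself given 2.06, 0, 0 and 0.45 counts, so the division between them is an estimate.

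Cyp2c38 (chromosome 19, 39389556 to 39463075, minus strand, ENSMUSG00000032808.2) had 1 and 2 counts in the controls but 27 and 16 with the knockdown. The ratio of the summed counts was 14.3 (95% counting interval 4.58 to 72.1), and its edgeR adjusted p was 0.011. This gene sits at the low end of what the depth can show, and with a filter of 1 CPM in 2 libraries it was not tested at all. Its closest relative, Cyp2c39 (93.6% identity over 1819 bases), had 0 counts in all 4 libraries.

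The 15 Cyp2c genes lie on chromosome 19, 14 of them in a cluster of 1180 kb (39007019 to 40187333). Most counts of this cluster fell on Cyp2c68. Its neighbour on the left, Cyp2c67, lies 39782 bases away and had 0, 0, 3 and 1 counts, and Cyp2c40, 26016 bases away on the right, is described above. The other 13 genes of the cluster together had 9, 9, 55 and 46 counts. Most of these came from Cyp2c38, Cyp2c29 and Cyp2c55. At the far end Cyp2c37, Cyp2c54, Cyp2c50 and Cyp2c70 had at most 1 count in any library.

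**Figure D4:**
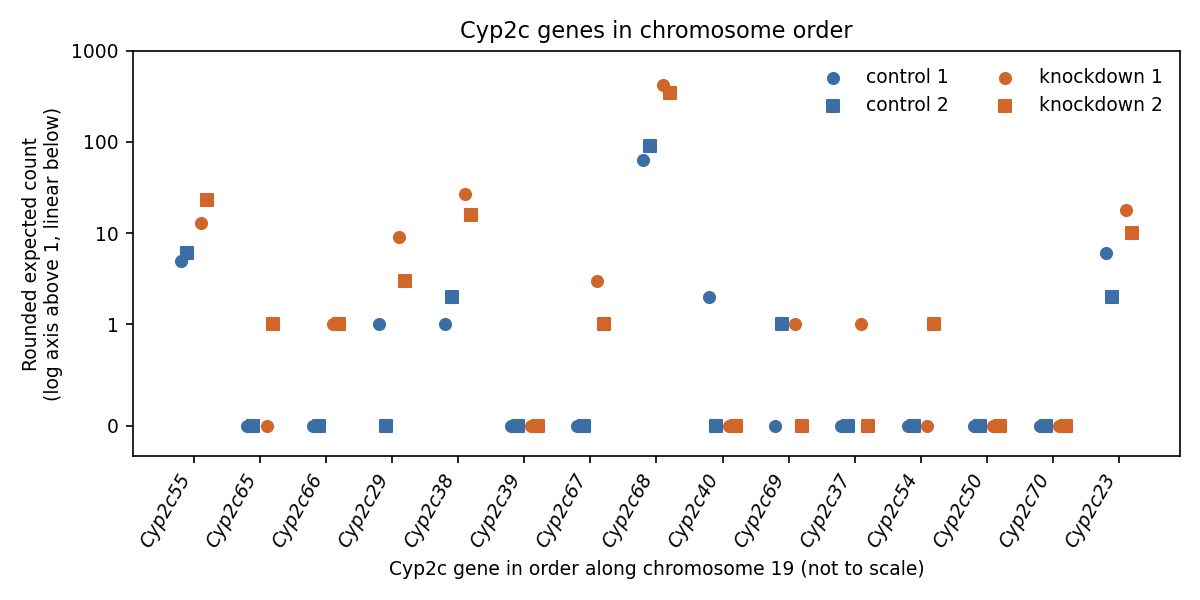
Rounded expected counts of the Cyp2c genes (vertical axis, logarithmic above 1 and linear below) in their order along chromosome 19 (horizontal axis, not to scale), with control libraries in blue and knockdown libraries in orange. Cyp2c68 has 63 to 417 counts, while its neighbours on both sides have at most 3.

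Cyp2c55, at the left end of the cluster, had 5, 6, 13 and 23 counts, or 0.255 and 0.308 CPM against 0.663 and 1.18 CPM. Cyp2c23, an arachidonic acid epoxygenase known from kidney that lies outside the cluster, had 6, 2, 18 and 10 counts. In both genes the knockdown libraries lay above the controls, but neither passed the test. The log2 fold change of Cyp2c55 was 1.70 (SE 0.544, edgeR adjusted p = 0.107), and that of Cyp2c23 was 1.79 (SE 0.642, edgeR adjusted p = 0.144).

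The position-named loci that the files also list were read off around the members. Within 10 kb of Cyp4b1 1 such locus lies, and it had 0, 1, 0 and 0 counts. Around Cyp2c68 there are 3, with 0, 0, 0 and 1 counts in all. Around Cyp2c38 there are 7, which together had 22, 9, 20 and 11 counts, so the groups overlapped. No such locus lies within 10 kb of Cyp1a1.

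Cyp1a1, which oxidises polycyclic aromatic hydrocarbons, was the most abundant of the called genes. It lies on chromosome 9 (57687928 to 57703824, plus strand, ENSMUSG00000032315.6). Its level was 42.1 and 40.7 CPM in the controls against 78.97 and 65.97 CPM in the knockdown, with no overlap. Mean levels were 41.4 ± 1.03 and 72.5 ± 9.19 CPM (SD, n = 2). This was a log2 fold change of 0.82 (SE 0.149, edgeR adjusted p = 0.0122), while limma on log2(TPM + 1) gave an adjusted p of 0.0592. Its neighbour Cyp1a2 stayed at 1 or 2 counts in each library. Cyp1b1, the third gene of family 1, which also oxidises oestrogens, had 12 and 4 counts in the controls, against 29 and 27. This log2 fold change of 1.80 (SE 0.490, edgeR adjusted p = 0.064) was not called, and without control 1 it passed (edgeR adjusted p = 0.00716).

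**Figure D5:**
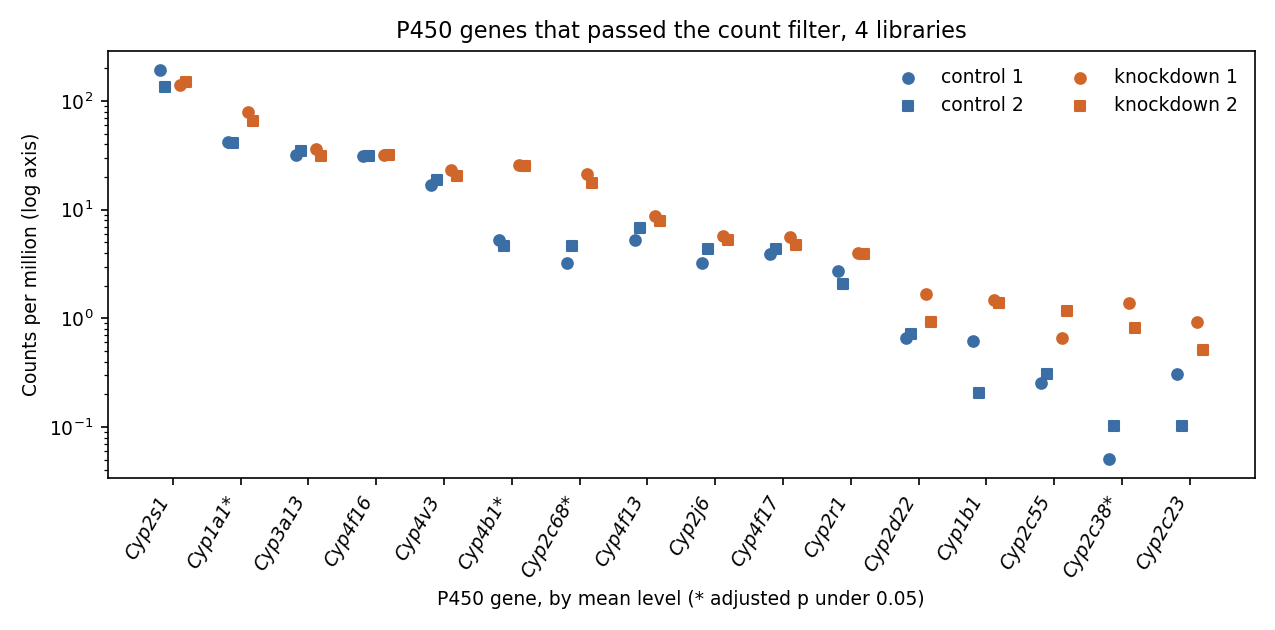
CPM (vertical axis, logarithmic) of the 16 tested P450 genes in the control libraries (blue) and knockdown libraries (orange), with circles for library 1 and squares for library 2 of each group and stars at called genes. The groups overlap for Cyp2s1 and Cyp3a13, and Cyp4b1 and Cyp2c68 show wide gaps.

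Cyp2s1 and Cyp3a13 were not called. Cyp2s1 stood at 192 and 135 CPM in the controls and at 141 and 149 CPM in the knockdown, and its log2 fold change of -0.17 (SE 0.177, edgeR adjusted p = 0.647) became 0.13 without control 1. Control 1 was the high library, and the other 3 lay close together. Opposite-strand genes (Gm45226 and Gm26707) overlap Cyp2s1, and without strand in the counting their reads would be mixed. Cyp3a13, the Cyp3a gene also known from intestine, had 31.6, 34.4, 36.5 and 30.9 CPM, so the groups overlapped (log2 fold change 0.04, SE 0.157, edgeR adjusted p = 0.912). The other 6 Cyp3a genes had between 0 and 13 counts each over all libraries.

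Cyp4f enzymes hydroxylate fatty acids and leukotrienes. Cyp4f16 had 31.3 and 31.2 CPM in the controls against 31.9 and 31.8 CPM in the knockdown, a gap far smaller than its SE (log2 fold change 0.04, SE 0.149, edgeR adjusted p = 0.911). Its TPM differed more, at 28.5 in control 1 and 21.9 to 22.9 in the other libraries, since its estimated transcript length was 1643 bases in control 1 and 1970 to 2075 in the others. Cyp4f13 had 5.26 and 6.71 against 8.82 and 7.87 CPM (edgeR adjusted p = 0.239). Cyp4f17 had 3.88 and 4.36 against 5.56 and 4.75 CPM (edgeR adjusted p = 0.458). Cyp4v3, the mouse counterpart of the human fatty acid hydroxylase CYP4V2, had 16.9 and 18.6 against 23.2 and 20.5 CPM (edgeR adjusted p = 0.326, log2 fold change 0.31, SE 0.170).

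Of the remaining tested Cyp2 genes, the vitamin D hydroxylase Cyp2r1 had 2.76 and 2.05 CPM in the controls against 4.03 and 3.94 CPM in the knockdown (log2 fold change 0.74, SE 0.276, edgeR adjusted p = 0.158). Cyp2j6 had 3.27 and 4.36 against 5.76 and 5.21 CPM (log2 fold change 0.54, edgeR adjusted p = 0.249). Cyp2d22 had 13, 14, 33 and 18 counts (log2 fold change 0.92, edgeR adjusted p = 0.263). Both knockdown libraries lay above both controls in all 3. This held for 10 of the 12 members that reached the filter's minimum in both controls, against 23.5% of all such genes. The log2 fold change was above 0 in 11 of these 12, against 47.2% of all such genes. The order alone says nothing of size, as Cyp4f16 shows.

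The 59 members below the filter were low in all libraries, and 28 of them had any count. They summed to 12 and 5 counts in the controls against 64 and 36 after knockdown. All 42017 genes below the filter summed to 13841 and 14410 against 17093 and 16153. Of the 28, 15 had counts only in the knockdown libraries, 3 only in the controls (Cyp2c40, Cyp2t4 and Cyp3a16) and 10 in both, where 26.1% of all such genes had counts in the knockdown libraries only. The 95% counting interval of the ratio lay above 1 for 5 of the 28 and below 1 for 0, where 4.26% and 1.74% of all such genes did. These intervals cover counting error only, and 19 of the 28 genes had at most 3 counts in total, too few to show a change.

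The 5 were the only members below the filter with at least 10 counts. Cyp2b10, the classical target of CAR, had 0 and 0 counts in the controls against 11 and 5 in the knockdown, and the lower 95% counting limit of the ratio was 3.85. Cyp3a57 had 0, 0, 8 and 5 counts (lower limit 3.04), and Cyp4f37 had 0, 0, 5 and 7 (lower limit 2.77). Cyp4f37 is 96.1% identical to the far more abundant Cyp4f16 over 1607 bases, so its few reads are uncertain. Cyp2c29 had 1, 0, 9 and 3 counts (ratio 12.0, 95% counting interval 1.77 to 512) and Cyp2d9 0, 1, 8 and 2 (ratio 9.98, interval 1.42 to 433). Other genes on the same strand (Gm46501, Gm49421 and Gm27622) overlap Cyp2d9, and whether they share its reads was not tested. Without knockdown 1, which held 64 of the 100 knockdown counts of the 59 members, the interval lay above 1 for 3 members.

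For the related gene lists, too, a gene that missed the filter's minimum in a control could be tested only with the help of the knockdown libraries. Their counts and medians are therefore given over genes that reached it in both controls. Over all such genes 3.28% were called higher and 1.87% lower, with a median of -0.0204. The receptors that act on P450 genes were not called: 0 of 6 such genes of 11 rose or fell (median log2 fold change 0.0439). Ahr had 2217 and 1680 counts in the controls against 1355 and 1521 in the knockdown, below both controls (log2 fold change -0.43, edgeR adjusted p = 0.178, or 0.0271 without control 2). Its partner Arnt had 1371, 1484, 1316 and 1520 counts (edgeR adjusted p = 0.992). The CAR gene Nr1i3 had 10, 9, 14 and 14 counts (edgeR adjusted p = 0.525), the PXR gene Nr1i2 0, 0, 1 and 0, and Ppara 2, 8, 9 and 2. Rxra, their common partner, had 1262, 1203, 1507 and 1576 counts (edgeR adjusted p = 0.191).

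Of 7 Ahr target genes outside the P450 families, 1 of 3 that reached the minimum in both controls rose and 0 fell (median 0.325, against -0.0204 over all such genes). Nqo1, a quinone reductase that NRF2 also controls, had 103 and 40 counts in the controls against 204 and 311 in the knockdown (log2 fold change 1.86, SE 0.380, edgeR adjusted p = 0.021). Ugt1a6a, a glucuronosyltransferase with shared exons and fractional counts in 3 libraries, reached the filter's minimum in control 1 and the knockdown libraries, not in control 2. It had 11, 0, 44 and 37 counts (edgeR adjusted p = 0.0347, DESeq2 adjusted p = 0.538). Tiparp, a target that feeds back on Ahr, had 745 and 964 counts against 531 and 558 (log2 fold change -0.64, edgeR adjusted p = 0.0578). The Ahr repressor Ahrr was below the filter with 10, 14, 0 and 3 counts, a ratio of 0.125 (95% counting interval 0.0241 to 0.411). Members of this list thus lay on both sides.

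Among 15 liver transcription factors, 13 reached the minimum in both controls, of which 0 rose and 3 fell (median -0.132), where 3.28% and 1.87% of all such genes did. Nr5a2, a nuclear receptor of bile acid and sterol genes, had 395 and 348 counts in the controls against 167 and 211 in the knockdown (log2 fold change -0.96, edgeR adjusted p = 0.0232, or 0.0706 without knockdown 1). Cebpb had 1128 and 1393 against 867 and 690 counts (log2 fold change -0.68, edgeR adjusted p = 0.045, or 0.0965 without control 2 and 0.167 without knockdown 2). Hnf4a, a central activator of hepatocyte genes, had 4501 and 4635 against 3202 and 2796 counts (edgeR adjusted p = 0.0302, or 0.141 without knockdown 2). Its paralog Hnf4g, which passed the filter only through the knockdown libraries, had 1 and 4 against 19 and 14 counts (edgeR adjusted p = 0.042, or 0.0768 without control 1 and 0.0787 without knockdown 1).

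The listed genes of electron supply and haem metabolism were not called. Of the 7 electron partners, all tested, 0 rose or fell (median 0.144), and the reductase Por had 3111, 3191, 4219 and 3137 counts (edgeR adjusted p = 0.433). Of 13 genes of haem synthesis and breakdown 12 were tested and 0 called (median 0.0031). Alas1, the rate-limiting step of haem synthesis in liver, had 830, 601, 623 and 644 counts (edgeR adjusted p = 0.665). Of 7 flavin monooxygenases 2 were tested and 0 called (median -0.215).

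In the P450 families beyond the fourth, 2 of 6 genes of 21 that reached the minimum in both controls rose and 0 fell (median -0.0222), where 3.28% and 1.87% of all such genes did. Cyp21a1, the steroid hydroxylase of the adrenal, passed the filter only through the knockdown libraries. It had 4 and 0 counts in the controls against 34 and 56 in the knockdown (edgeR adjusted p = 0.00646). Cyp11a1, which cleaves the side chain of cholesterol, had 132 and 104 against 204 and 243 counts (log2 fold change 0.93, edgeR adjusted p = 0.0423, or 0.0836 without control 2 and 0.172 without knockdown 2). The oxysterol hydroxylase Cyp7b1 had 138 and 149 against 231 and 270 counts (log2 fold change 0.82, edgeR adjusted p = 0.0463, or 0.253 without knockdown 2). Of 11 epoxide and eicosanoid enzymes 5 reached the minimum in both controls, 1 rose and 0 fell (median 0.0129), beside the same 3.28% and 1.87%. The gene that rose, Ephx1, encodes the microsomal epoxide hydrolase that acts on epoxides made by P450s, and had 1444 and 1084 against 3637 and 3677 counts (log2 fold change 1.54, SE 0.165, edgeR adjusted p = 8.860e-04).

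With no filter on low counts edgeR called 0 P450 genes and 0 genes in all, with 3378 genes at an unadjusted p under 0.05, and the adjusted p of Cyp4b1 was 0.0877 there and that of Cyp2c68 0.0967. On log2(TPM + 1) limma called 2 members, Cyp2c68 and Cyp4b1, and DESeq2 called the same 4 genes as edgeR with the filter. In the related lists edgeR called 7 genes higher and 3 lower, and limma on log2(TPM + 1) 3 and 1.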

How the data were processed

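Total RNA was extracted with a column kit and made into directional libraries, per the labels' protocols. The submitters' processing notes list the tools FastQC, STAR, RSEM and DESeq2 and, as builds, mm10 and GRCm38, with no roles. Which annotation release, read filters and strand setting were used is not given in the sources used here. Per the file headers, the authors deposited expected counts (estimates that divide reads fitting several genes), TPM and FPKM. The deposited TPM values were used for levels and for limma, and the deposited FPKM values were not used.

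Expected counts were rounded for 54838 named genes, and library sizes were sums over all 115821 rows, including 60983 position-named loci. CPM values use these sums, at which 0.511 CPM is about 10 counts. The test was edgeR's quasi-likelihood F-test (version 4.0.16, R 4.3.3) after TMM scaling and the default filterByExpr, on group alone, with Benjamini-Hochberg adjustment over 12821 genes. SEs came from the F statistic. The smallest exact two-sided permutation p for 2 against 2 libraries is 0.333. The fit was tested on counts simulated from its own levels and dispersion, which cannot test the spread between cultures or subclones. Counts within 0.005 of an integer were called whole. Intervals are exact binomial, and a count of 0 allows up to 3 counts.

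The members and lists were chosen with earlier results of these data known. Every tested member was named, as was any other with at least 10 counts. From the related lists, called genes and Ahr, Arnt, Ahrr, Nr1i2, Nr1i3, Ppara, Rxra, Hnf4a, Por and Alas1 were named. Other genes were named after their values were seen. The leukocyte marker list is not reported here. Coordinates are GENCODE M21 (GRCm38), promoter windows RefSeq (GRCm38.p6), and transcript identities came from BLAST 2.17.0. Alternatives were DESeq2 1.42.0 (size factors and Wald test), other filters, the legacy fit, limma 3.58.1 on log2 of TPM plus 1 or 0.1, loci in the fit, each library left out, and blocks by replicate number.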

Additional observations from a re-analysis of the deposited data

How the results depend on the processing

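The count of 4 higher members became 0 without the low-count filter, 2 with limma on log2(TPM + 1) and 3 with log2(TPM + 0.1), 3 with a filter of 1 CPM, and 4 with DESeq2's size factors or Wald test, the legacy fit and loci in the fit. Leaving out a library gave 4 to 6, the highest without control 1, which added Cyp1b1 and Cyp2b10. No alternative called a member lower. The libraries share only replicate numbers (correlation of same-number deviations -0.182). With the replicate number as a block 5 members were higher (Cyp1b1 was added) and with the crossed block, added after the data had been seen, 7. Related lists had 7 higher and 3 lower genes. These became 0 and 0 without the filter, 3 and 1 on log2(TPM + 1), 2 and 1 on log2(TPM + 0.1), 11 and 8 with the crossed block, and 6 and 3 with the replicate block, and leaving out a library gave 5 to 7 and 2 to 7. Members with a count numbered 29 in the controls and 41 in the knockdown, 17 and 27 when both libraries needed one, 14 and 21 at 10 counts over the group, and 20 to 26 and 32 to 36 with a library left out. Untested members with an interval above 1 numbered 5, and 3 to 5 with a library left out (3 without knockdown 1). Small values of uncalled genes changed sign. Leaving out libraries moved Cyp2s1 between -0.412 and 0.126 (without control 1), Cyp4f16 -0.138 and -0.143 with limma (pseudocounts 1 and 0.1), and Cyp3a13 -0.019 and -0.0203 there, -0.00152 without control 1 and -0.0754 without knockdown 1 (up to 0.156 without knockdown 2). Alas1 was 0.38 and 0.389 with limma and, leaving out libraries, -0.392 to 0.0979. Arnt was -0.000561 with size factors, -0.00617 without the filter, -0.000106 with 1 CPM, -0.000558 in DESeq2, -0.047 and -0.0487 with limma, -0.0433 without control 1, -0.11 without knockdown 2 and 0.109 without knockdown 1, and -0.000401 and -0.000344 with the replicate and crossed blocks. The cause of these changes was not tested. Cyp7b1 lost its call with the block (edgeR adjusted p = 0.0595). At 19513567 to 19615440 counts a library, the fit of all 4 could test only members with about 10 counts in at least 2 libraries.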
